A study of Mus musculus with 2 samples.

Results

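The genes described here handle vitamin A in the liver: they carry retinol in plasma, store it as retinyl ester, interconvert retinol and retinal, oxidise retinal to retinoic acid, and break retinoic acid down. The set holds 9 genes of the 18194 that the platform annotation names alone on a probe set, namely Rbp4, Lrat, Rdh7, Rdh11, Dhrs3, Aldh1a1, Aldh1a7, Cyp26a1 and Cyp26b1. They are read by 11 probe sets out of 34958 with 1 gene symbol. The genes were chosen by function with earlier results of these arrays known, among them the low Cyp26b1 signal under diosgenin, so their ratios are a description and are not evidence for a change of the pathway.

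Liver RNA came from ICR mice, an outbred stock, aged 13 weeks. The control group received the basal diet CRF-1, and the diosgenin group received CRF-1 with diosgenin, a plant steroidal sapogenin, at 500 ppm, in both cases for 4 weeks from 9 weeks of age. Each diet is represented by 1 Affymetrix array, hybridised with liver RNA pooled from 3 mice. The sex of the animals and the hour of collection are not given in the labels used here. With 1 array per diet there is no spread between replicates, so no test was made, and "higher" and "lower" give the position of the diosgenin array against the control. Cages held 3 mice, so cage and diet cannot be told apart if each diet was a single cage.

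Dietary vitamin A reaches the liver as retinyl ester, is taken up by hepatocytes as the ester, and is then largely passed on to stellate cells, where it is stored again as ester in lipid droplets. Release into plasma needs retinol binding protein bound to transthyretin. Retinoic acid, made from retinol through retinal, binds the nuclear receptors RAR and RXR. Enzymes of the CYP26 family hydroxylate it, and Cyp26a1 is among the genes that retinoic acid itself induces most directly.

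The retinoic acid hydroxylases Cyp26a1 and Cyp26b1 carry the main contrast within the set, and their start sites are shown first because the better known control of Cyp26a1 can be read there. The sequences are the 250 bases before the RefSeq start site in build GRCm38.p6, 5′ to 3′ on the strand of the gene: chr19:37697558-37697807 on the plus strand for Cyp26a1 and chr6:84593811-84594060 on the minus strand for Cyp26b1. Capitals mark a pair of 6-base core motifs of nuclear receptors arranged as a direct repeat.
Cyp26a1: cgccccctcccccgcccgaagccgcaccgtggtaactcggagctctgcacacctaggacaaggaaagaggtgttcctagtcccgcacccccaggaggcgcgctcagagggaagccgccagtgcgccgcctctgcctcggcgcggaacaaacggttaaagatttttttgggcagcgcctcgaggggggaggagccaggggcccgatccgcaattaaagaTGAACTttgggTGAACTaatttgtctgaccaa
Cyp26b1: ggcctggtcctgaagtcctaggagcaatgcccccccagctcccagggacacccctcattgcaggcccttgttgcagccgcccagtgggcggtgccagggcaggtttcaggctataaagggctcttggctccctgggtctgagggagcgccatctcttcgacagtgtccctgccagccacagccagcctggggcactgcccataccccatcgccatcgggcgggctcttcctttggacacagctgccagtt

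The search covered the core AGGTCA with its close variant AGTTCA, the further variant GGGTCA, and as the last variant GGTTCA, on both strands, as direct repeats with 1, 2 or 5 bases between them, in the 15 start site windows that RefSeq gives for the 9 genes. It found 1 repeat, in Cyp26a1, at bases −32 to −16 before the start site. Read on the opposite strand it is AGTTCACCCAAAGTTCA, a core that recurs after 5 bases, the spacing that RAR and RXR pairs are known to prefer. A repeat with this spacing was present in 29 of all 32851 windows, or 0.0883%, one with 1 base between the cores in 0.164%, and one with 2 in 0.174%. A single core stood in 38.6% of windows. The match is a description of these letters, and its absence from the window of Cyp26b1 or of the other genes says nothing of sites farther away.

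Cyp26a1, the main retinoic acid hydroxylase of hepatocytes, had a signal of 827 in the control pool and 853 in the diosgenin pool. The signals are linear array intensities as deposited, and each ratio is taken within a probe set, since the level of 1 probe set cannot be set against that of another. The log2 ratio, diosgenin over control, was 0.04, which is a difference of 3.09%. The repeat beside its start site thus belongs to a gene whose signal was nearly the same on both diets.

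Cyp26b1, which carries out the same hydroxylation and is known from many tissues outside the liver parenchyma, had a signal of 70.5 in the control pool and 7.30 in the diosgenin pool. The second value lies under 10.7, the 40th percentile of all signals, to which lower signals were raised before ratios were taken, because values there carry little information. With this floor the diosgenin signal was 6.56-fold lower, a log2 ratio of −2.71, and the values as deposited gave −3.27. A higher floor, at the 60th percentile, gave a log2 ratio of −1.31. The size of the ratio thus depends on the floor, and 6.56-fold is not a lower bound. Cyp26b1 has a single probe set here (1460011_at), so no repeat reading within the arrays exists.

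Since Cyp26b1 was chosen with this value known and reached the signal filter through its control signal alone, the counts of other probe sets that follow describe the arrays at this brightness and support nothing about the gene. Of 1152 probe sets with 1 gene symbol and a control signal within 10% of that of Cyp26b1, 2 were under the floor on the diosgenin array, that of Cyp26b1 included, or 0.174%. The middle 95% of the 1152 had diosgenin signals between 39.0 and 104. In the opposite direction, 1 of 1125 probe sets with a diosgenin signal in that range was under the floor on the control array, or 0.0889%.

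**Figure D1:**
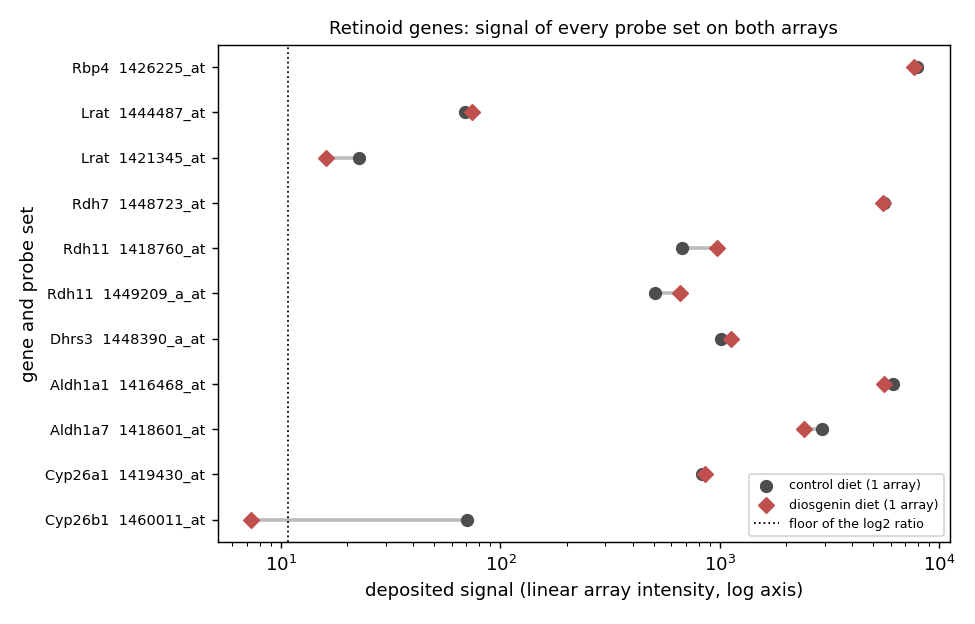
Signal of each of the 11 probe sets of the retinoid genes (linear array intensity on a log axis) for the control diet (grey circles) and the diosgenin diet (red diamonds), with the floor of 10.7 as a dotted line. The symbols nearly coincide for most probe sets, are apart to the right for both Rdh11 probe sets, and are farthest apart for Cyp26b1, at 70.5 and 7.30.

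Transport and storage come before these steps in the pathway. Rbp4, the plasma carrier that hepatocytes secrete with retinol, had signals of 7877 and 7625, control first, a log2 ratio of −0.05 that became 0.03 after quantile normalization, so that its direction depends on the scaling. Lrat, the acyltransferase that esterifies retinol in stellate cells, was read by a pair of probe sets. Its brighter probe set gave 68.8 and 74.4, a log2 ratio of 0.11. Its other probe set gave 22.8 and 16.0, a log2 ratio of −0.51, below the mean signal of 28.4 that a value had to reach to be used. The Lrat probe sets thus pointed in opposite directions, and the one that did so with the larger ratio was too dim to be used.

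Among the enzymes that interconvert retinol and retinal, Rdh11 showed the highest ratio of the set. Rdh11, a reductase of the endoplasmic reticulum that turns retinal back into retinol, had signals of 668 and 967 on probe set 1418760_at, 1.45-fold higher, a log2 ratio of 0.53. Probe set 1449209_a_at gave 507 and 661, 1.30-fold higher, a log2 ratio of 0.38. Both readings were higher on the diosgenin array. Among the 2433 genes in the brightest of 4 equal groups by signal, the middle 95% of log2 ratios reached from −0.47 to 0.44, so the first Rdh11 probe set lay outside this range and the second inside it.

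Dhrs3, another reductase of retinal and itself a gene that retinoic acid induces, had signals of 1016 and 1127, a log2 ratio of 0.15. Rdh7, a retinol dehydrogenase of a gene cluster with several close relatives, had 5609 and 5551, a log2 ratio of −0.01. Neither reached 0.28, the standard deviation of log2 ratios between probe sets of the same gene, computed over the 4079 genes with several usable probe sets. That spread lies within arrays, pools bright and dim probe sets, and holds no variation between mice.

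Aldh1a1 and Aldh1a7 were slightly lower. Aldh1a1, which oxidises retinal to retinoic acid, had signals of 6133 and 5594, a log2 ratio of −0.13. Aldh1a7, its close rodent paralogue, had 2912 and 2415, 1.21-fold lower, a log2 ratio of −0.27. Both differences were smaller than 0.28, the spread between probe sets of a gene at all signals above the filter. Over the genes of the brightest group, which holds both, the standard deviation of log2 ratios was 0.23, and the Aldh1a7 ratio was larger in size than this.

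The 2 Aldh1a genes resemble each other also outside their coding parts, and a stretch before their start sites is shown because it tells how close the copies are. Of the 2 start sites that RefSeq lists for Aldh1a1, the first aligned with that of Aldh1a7 at 50.9% identity. Its longest run without a difference had 8 bases. The second aligned at 66% identity over 265 columns, and the longest run without a difference had 65 bases. It lies at chr19:20601874-20601938 on the plus strand before Aldh1a1 and at chr19:20727586-20727650 on the minus strand before Aldh1a7 (GRCm38.p6), from base −94 to base −30 in both.
Shared stretch: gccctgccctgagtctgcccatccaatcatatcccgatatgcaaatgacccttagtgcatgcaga
The probe sequences were not used here, so whether each probe set reads its own gene alone was not tested, and the values of both genes are uncertain in this respect.

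Across the set, all 9 genes reached the signal filter of 28.4 with at least 1 probe set, and 10 of the 11 probe sets did. Cyp26b1 reached it through its control signal alone. The median log2 ratio was −0.01, beside −0.01 for all 9732 genes above the filter. By any amount 4 of the 9 genes were higher, as were 49% of all genes, and 5 were lower, as were 51%. Of the 9 genes, 1 was at least 1.5-fold lower, where 3.61% of all genes were, and 0 were at least 1.5-fold higher, where 2.84% of all genes were. The gene that passed is Cyp26b1, and since the set was put together with that value known, nothing is read from the count. For 7 of the 9 genes the log2 ratio was smaller than 0.28.

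**Figure D2:**
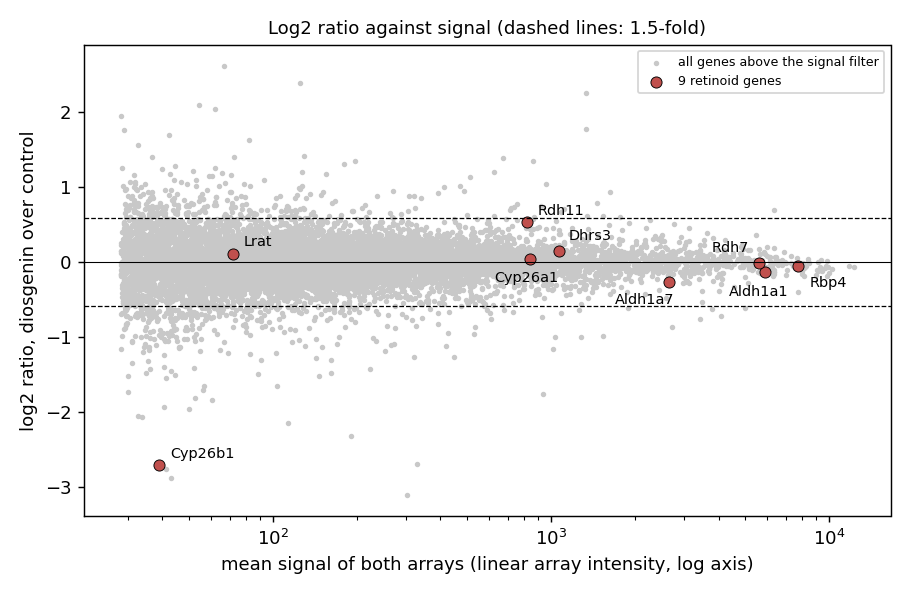
Log2 ratio, diosgenin over control, against the mean signal of both arrays (log axis) for all 9732 genes above the signal filter (grey) and the 9 retinoid genes (red), with dashed lines at 1.5-fold. The grey cloud widens toward dim signals on the left; Cyp26b1 lies far below it at −2.71, Rdh11 near its upper edge at 0.53, and the other genes inside it.

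Other genes of the pathway were taken from 6 lists of carriers, ester enzymes, oxidoreductases, retinal dehydrogenases with binding and breakdown proteins, receptors, and genes known to respond to retinoic acid. Without the 9 genes above, the lists hold 93 genes, of which 81 had a probe set of their own here and 62 reached the filter. Of these 62, 6 (9.68%) had signals at least 1.5-fold higher, beside 2.84% of all genes. At least 1.5-fold lower were 3 (4.84%), beside 3.61% of all genes. The remaining 53 were within 1.5-fold, and the median of all 62 was −0.05. The 6 higher genes come from 5 of the lists and have different functions. The arrays give no test of whether these shares differ from those of all genes.

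Carriers and uptake proteins had 6 genes above the filter, with 2 higher, 4 lower and a median log2 ratio of −0.13. Ttr, the transthyretin that carries Rbp4 in plasma, had signals of 9832 and 9041, a log2 ratio of −0.12, and the median of its other probe sets was −0.14. Stra6l, a liver receptor for Rbp4, had 1171 and 1063, a log2 ratio of −0.14. Together with Rbp4, the plasma transport genes therefore showed small ratios. Lpl, a lipase that can also release retinol from the retinyl ester of chylomicrons, was the gene past 1.5-fold, with 235 and 378, 1.61-fold higher, and its second probe set gave 0.74. Scarb1, which takes up lipoprotein lipids and carotenoids, had 1034 and 773, a log2 ratio of −0.42. Cd36 and Lrp1, which take up fatty acids and chylomicron remnants, had log2 ratios of −0.24 and 0.18.

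Enzymes that make or cleave retinyl esters had 10 genes above the filter, with 5 higher, 5 lower and a median of 0.06. The carboxylesterase Ces1g was 1.67-fold higher, at 551 and 922. Pnpla2, a lipid droplet lipase, had 272 and 353, a log2 ratio of 0.38. Ces1e had a log2 ratio of 0.19, Ces1f one of −0.18 and the monoglyceride lipase Mgll one of −0.17. Ces1d, a carboxylesterase able to hydrolyse retinyl esters, was 2617 and 2893 on the probe set that stands for it, a log2 ratio of 0.14, while its 2 other probe sets gave 0.82 and 3.23. Carboxylesterase genes are close copies, and these values are uncertain.

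Other oxidoreductases of retinol and retinal had 17 genes above the filter, with 7 higher, 10 lower and a median of −0.06. Among the relatives of Rdh7, the ratios ran in opposite directions. Rdh16f2 had signals of 274 and 551, 2.01-fold higher, whereas Rdh16 had 329 and 220, a log2 ratio of −0.58 that lies just inside 1.5-fold. Rdh9, a further relative, had 706 and 667, a log2 ratio of −0.08. These genes are near copies of each other, each has 1 probe set here, and their readings are uncertain. Bco1, which cleaves β-carotene into retinal, had 85.2 and 67.7, a log2 ratio of −0.33, and Bco2, which cleaves carotenoids off centre, 89.97 and 117, a log2 ratio of 0.38. Dhrs7 and Rdh14 had log2 ratios of 0.34 and 0.29.

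Other retinal dehydrogenases, with proteins that bind or break down retinoic acid, had 7 genes above the filter, 4 higher and 3 lower, with a median of 0.01. Cyp3a13, a cytochrome P450 of the xenobiotic family, had 379 and 869, 2.30-fold higher. Cyp2c39, a P450 known to hydroxylate retinoic acid, had 745 and 596, a log2 ratio of −0.32. Aox1, an aldehyde oxidase that can act on retinal, had a log2 ratio of −0.36, and Fabp5, which can carry retinoic acid to a nuclear receptor, one of −0.30. Aldh8a1, which prefers 9-cis retinal, had 2373 and 2516, a log2 ratio of 0.08, and Aldh1b1 one of 0.07. The signals of Crabp1 and Crabp2, the cellular retinoic acid binding proteins, and of Aldh1a3 were under the floor on both arrays. Aldh1a2 was at 5.84 under the control diet and 12.6 under diosgenin, below the filter.

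Receptors and coregulators had 15 genes above the filter, with 8 higher, 7 lower and a median of 0.05. Rarb, a retinoic acid receptor whose own gene retinoic acid induces, had 58.2 and 31.2, 1.87-fold lower, on a single dim probe set. In the dimmest of the 4 signal groups, which holds Rarb and Cyp26b1, the middle 95% of log2 ratios reached from −0.95 to 0.83, and the −0.90 of Rarb lies inside it. Rxra, the main RXR of liver, had 971 and 1112, a log2 ratio of 0.19. The corepressor Nrip1 had 182 and 127, a log2 ratio of −0.52, and the median of its 5 other probe sets was −0.23. Nr2c2 and Nr2c1, orphan receptors that bind the same kind of repeat, had log2 ratios of 0.43 and 0.34, and the coactivator Ncoa3 one of −0.37. Further usable probe sets of Nr2c1 gave −0.32 and 0.52, and the other usable one of Ncoa3 gave −0.03. Rarg had −0.21 on the brighter probe set and 0.64 on the other.

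Genes known to respond to retinoic acid, without the 3 that are in the set, had 9 members above the filter, with 2 higher, 7 lower and a median of −0.33. The direction of Tgm2, transglutaminase 2, at −0.00068, turns positive when ratios are centred on the median of all genes. At least 1.5-fold lower were Rarb, Meis2 and Egr1, or 33.3% of the 9, beside 3.61% of all genes. Meis2, a homeobox gene, had 58.1 and 36.2, a log2 ratio of −0.68, and its other usable probe set gave −0.15. Egr1, with 545 and 63.1, is an immediate early gene that many stimuli induce. At least 1.5-fold higher were Hoxa5, with 28.9 and 47.9, and Ret, with 22.7 and 38.5, both dim. They are 22.2% of the 9, beside 2.84% of all genes. The list was chosen with earlier results of these arrays known, so nothing is read from these shares. Nrip1 belongs to this list too. The median was −0.04 when the signal filter was left out. Of the genes this admits, Crabp2, Hoxa4 and Cdx1 were under the floor on both arrays, so the floor sets their ratios to 0. That median is the ratio of Stra6, at 11.0 and 2.27, the second raised to the floor. The list's median thus rests on which dim genes are admitted, and its shift toward 0 partly on the floor.

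**Figure D3:**
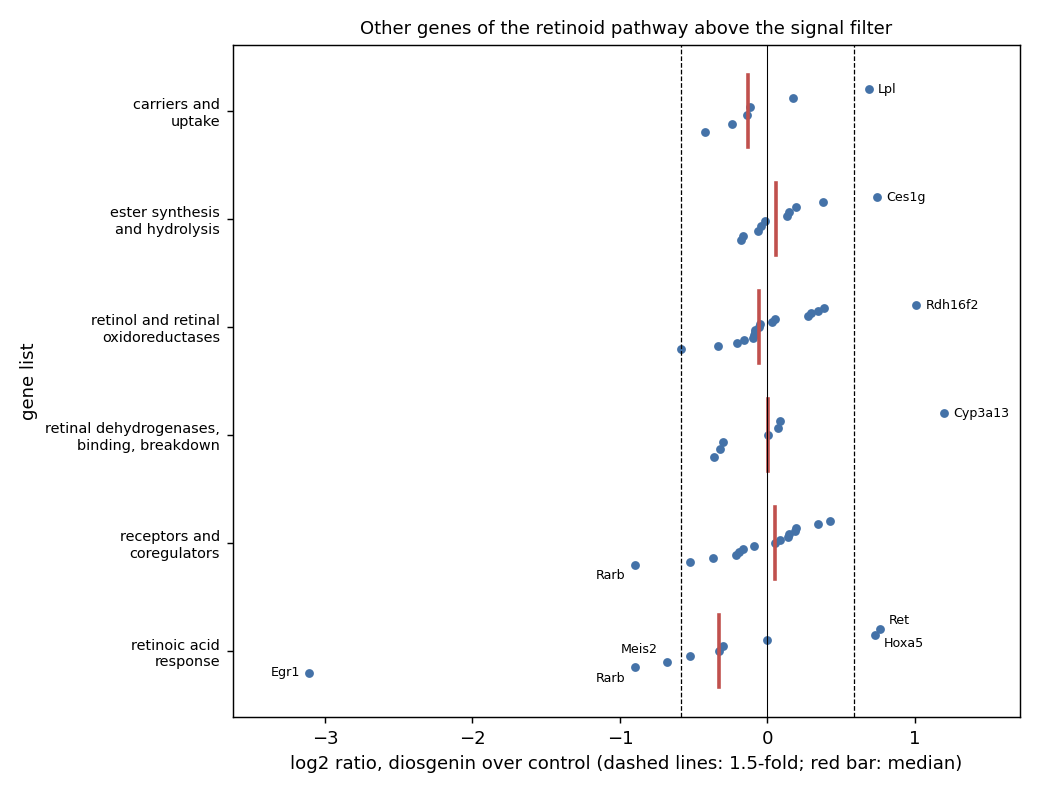
Log2 ratio, diosgenin over control, of the other retinoid pathway genes above the signal filter, in 6 lists, with 1 point per gene, a red bar at each list's median and dashed lines at 1.5-fold. Most points lie between the lines; names mark the genes beyond them, from Egr1 on the left to Cyp3a13 on the right at 2.30-fold higher. Rarb and Nrip1 each appear in 2 lists.

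The liver samples hold several cell types, and the retinoid genes are divided among them, Lrat to stellate cells and Rbp4 and Cyp26a1 to hepatocytes. Fewer cells of a type and less RNA per cell cannot be told apart in such samples. Hepatocyte markers, which check the labelled tissue, were bright, with Alb at 9517 and 8429 and Apoa1 at 12546 and 11986. On the brightest probe set of each gene, all 9 above the filter were within 1.5-fold, with a median log2 ratio of −0.07. The lowest of these ratios was that of Apob at −0.29, and Cps1 had 0.14. A second, dimmer Apob probe set above the filter had 216 and 113, a log2 ratio of −0.94 that is past 1.5-fold.

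Stellate cell markers other than Lrat had 17 genes above the filter, among them 15 higher and 2 lower, and a median of 0.21. Of all genes, 49% were higher and 51% lower. Hand2, a stellate cell transcription factor, had 27.8 and 54.0, 1.95-fold higher, Hgf had a log2 ratio of 0.44, and Pdgfrb one of −0.39. On the brightest probe set of each gene, none of the list's markers was under the floor on either array, while some dimmer probe sets were. For the markers above the filter, with Lrat, the summed signal was 4188 on the control and 4865 on the diosgenin array. The brightest probe sets weigh most in this sum. Below the filter, Col1a1 and Gfap were lower, with log2 ratios of −0.86 and −0.25. Rgs5, counted as higher at 0.21, had further usable probe sets at −0.74 and 0.28, and Bmp5, at 0.24, had another at −0.38. The Lrat ratio of 0.11 thus stood beside stellate markers that were mostly slightly higher above the filter, while Cyp26b1 was lower. Their part in either ratio was not tested.

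Endothelial markers had 12 genes above the filter, among them 11 lower and 1 higher, a median of −0.29 and a summed signal of 3103 and 2395. Of all genes, 51% were lower and 49% higher. Clec4g and Fcgr2b, proteins of the sinusoidal endothelium, had log2 ratios of −0.68 and −0.59, and Lyve1 one of −0.50. Clec4g and Fcgr2b were at least 1.5-fold lower, 16.7% of the list, beside 3.61% of all genes. The median of the 3 other usable Fcgr2b probe sets was smaller in size, at −0.29, and the other Lyve1 probe set gave −0.81. On the brightest probe set of each gene none was under the floor, while some dimmer probe sets were. Cyp26b1 and 11 of these markers were each lower on the diosgenin array, and with 1 ratio per gene no shared variation can be read. The Cyp26b1 ratio ran from −3.27 to −1.31 with the floor used. The part of the endothelium in the Cyp26b1 ratio was not tested.

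Pericentral and periportal hepatocytes differ in retinoid enzymes, and their markers were set beside them. The 14 pericentral markers were lower in 10 cases, beside 51% of all genes, with a median of −0.11. After quantile normalization 8 were lower. On the brightest probe set of each gene none was 1.5-fold apart, with Lect2 at −0.32, Lgr5 at 0.28 and Cyp1a2 at −0.25. A second, dim Ahr probe set above the filter had 45.0 and 17.6, a log2 ratio of −1.36, against −0.13 on the brighter one. The 13 periportal markers were higher in 9 cases, beside 49% of all genes, with a median of 0.16. Ctsc and Pck1 had log2 ratios of 0.46 and 0.30, and Hsd17b13, with probe sets at 2.26 and −0.80 that disagree, was the marker past 1.5-fold. Beside the pericentral median of −0.11, Aldh1a1 had −0.13 and Aldh1a7 −0.27, and the part of zonation in these ratios was not tested.

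**Figure D4:**
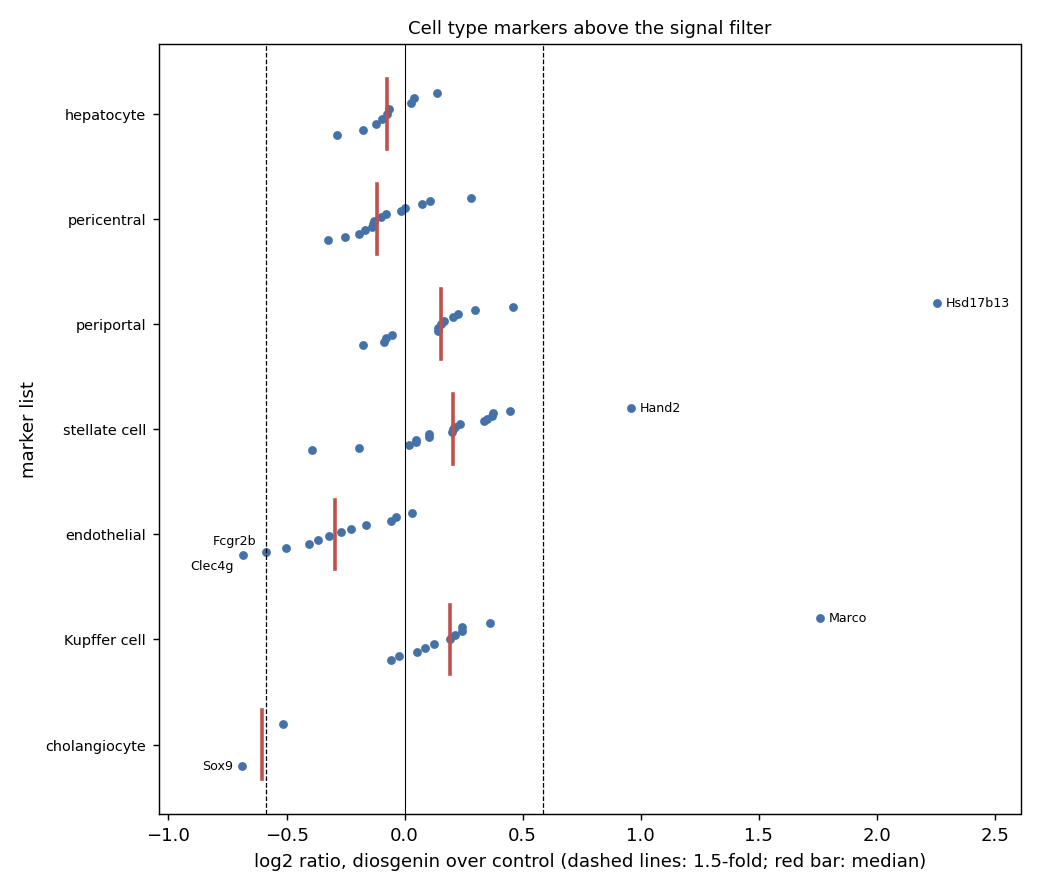
Log2 ratio, diosgenin over control, of cell type markers above the signal filter, in 7 lists, with 1 point per gene, a red bar at each median and dashed lines at 1.5-fold. Stellate and Kupffer cell medians lie to the right of 0, at 0.21 and 0.19, and the endothelial median to the left, at −0.29; the cholangiocyte list has 2 points.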

How the data were processed

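The deposited values are array intensities on a linear scale for 45101 probe sets, made with GCOS (Affymetrix software), per the submitters' processing notes. For its version, the summary algorithm and detection calls, nothing is given in the sources used here. The 2 arrays share a 2% trimmed mean of 96.9, a common scaling already in the deposited intensities. RNA was pooled from 3 mice per array, per the labels' protocols, and 5 µg was labelled.

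Probe sets with 1 gene symbol in the platform annotation were used, and names were matched by gene identifier to RefSeq (GRCm38.p6). Signals under 10.7 (40th percentile) were set to that floor, and log2 ratios taken. Each gene takes the value of its brightest probe set on average, and was used where that mean reached 28.4 (60th percentile). No p-value was computed, as each diet has 1 array, and the number of arrays limits the precision. Promoter windows are from the RefSeq table; all 9 genes matched, and the 50 transcribed bases of each window were left out. The functions were tested on simulated arrays. Python 3.11.15, pandas 2.3.3 and Biopython 1.88 were used.

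The genes and lists were chosen with earlier results of these data known. All 9 genes are described with every probe set. From each pathway list, genes at least 1.5-fold apart and those with the largest ratios were named, up to 6, and from each marker list up to 3. Genes named beyond this rule, after their values were seen, are Rxra, Rdh9, Tgm2, Crabp1, Crabp2, Aldh1a2, Aldh1a3, Apoa1, Retsat, Rara, Krt7 and Cftr. Named in the same way are Ahr, Col1a1, Gfap, Rgs5, Bmp5, Stra6, Hoxa4 and Cdx1. Of the other genes, 12 of the 93 pathway genes had no probe set of their own here and were not analysed here. The 9 alternatives tried were other floors, filters, probe set rules, scalings and a 2-fold threshold.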

Additional observations from a re-analysis of the deposited data

How the results depend on the processing

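Among the 9 genes, the direction of the log2 ratio held under every floor, filter, probe set rule and scaling that gave a value, except for Rbp4, which ranged from −0.05 to 0.03. Cyp26b1 ranged from −3.27 with the floor at the 20th percentile to −1.31 with it at the 60th, which follows from the floor itself, and Rdh11 from 0.46 to 0.54. With the signal filter at the 75th percentile, Cyp26b1 and Lrat were left out as too dim, and 0 of the 7 remaining genes were at least 1.5-fold lower; under the other alternatives, the 2-fold threshold included, the count stayed at 1. The number of other pathway genes called was 2 higher and 1 lower at 2-fold, and 4 higher and 1 lower at 1.5-fold under that stricter filter. The median of the retinoic acid response list was −0.0395 without the filter, where the floor sets the ratios of some admitted genes to 0. Over all genes, 54 were higher and 83 lower at 2-fold, 752 and 865 at 1.5-fold without the filter, and 105 and 136 under the stricter filter. All other medians moved by less than 0.28. No paired analysis was possible because each diet has 1 array. With 1 array per diet, the spread between mice and between pools is unknown, and dim probe sets such as those of Cyp26b1, Rarb and the second one of Lrat are the least reliable.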

Other observations

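Kupffer cell markers had 9 of 11 genes higher, beside 49% of all genes, with a median of 0.19. Clec4f, a receptor of Kupffer cells, had signals of 341 and 439 on the control and diosgenin arrays, C1qa had a log2 ratio of 0.24, and Marco, a dim scavenger receptor, was 3.39-fold higher at 13.3 and 45.1. Cholangiocyte markers were mostly too dim, with 2 of 7 above the filter: Sox9 had 42.0 and 26.1, and Aqp1, which endothelium also expresses, 602 and 421. Krt7 and Cftr were under the floor on both arrays.

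For several genes of the lists the probe sets disagreed beyond the usual 0.28. Ces1d had 268 and 2526 on probe set 1435371_x_at, 9.41-fold higher, against 1.11-fold on the probe set with the highest mean signal. Hsd17b13, a lipid droplet enzyme of the periportal list reported to act on retinol, had 461 and 2203 on probe set 1460606_at, 4.78-fold higher, and 222 and 127 on 1425589_at, 1.74-fold lower. Retsat, which saturates retinol, had log2 ratios of −0.10 and −0.57. Rara, a retinoic acid receptor, was below the filter at 1.31 and 20.6, the first of them under the floor.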
